A study of Mus musculus with 12 samples.

Results

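The genes described here are 9 members of the AP-1 transcription factor family, *Fos*, *Fosb*, *Fosl2*, *Jun*, *Junb*, *Jund*, *Batf*, *Batf3* and *Atf3*, together with *Bach2*, which encodes a repressor of AP-1 sites. The rule names them and uses no measured value, although they were chosen with earlier results of these data known. They are 10 of the 56691 mouse genes in the deposited count table. The cells were CD4+ T cells from the spleens of 12 Tg4 *Nr4a3*-Tocky *Il10*-GFP mice, with 1 library per mouse and 3 mice in each of 4 groups. All mice carry a transgenic TCR for a myelin basic protein peptide, a Timer reporter of *Nr4a3* transcription and a GFP reporter of *Il10*. Every mouse had [4Y]-MBP peptide at a dose of 4 mg/kg, then 0.5 mg of antibody after 24 h and, a further 30 min on, the peptide again at 0.4 mg/kg, and spleens were collected 12 h after that. The antibody was anti-Lag3, anti-PD-L1, both of them (combination blockade, CB) or a pool of isotype antibodies. Only cells positive for the blue and the red form of the Timer protein, the responders, were sequenced, so each group is a sorted fraction that had already signalled through the TCR, and nothing here describes the cells outside the gate. Spleens were digested at 37 °C before the sort. Cells were sorted in batches that held a mouse of each group, and it is not stated whether the numbers 1 to 3 in the sample names stand for these batches.

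AP-1 factors are basic leucine zipper proteins that bind DNA as pairs, typically a FOS protein with a JUN protein. In T cells the TCR and CD28 raise them through MAP kinase pathways, and they join NFAT on composite sites of cytokine and activation genes. BATF pairs with JUN proteins and binds next to IRF4 or IRF8, while BACH2 occupies the same kind of site, keeps resting and memory genes on and holds back effector genes. The comparison asks whether transcripts of these factors differed between responders of mice that had received PD-L1 blockade, Lag3 blockade, both or neither.

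Promoter stretches are shown for the 4 FOS and JUN genes whose window holds letters of the cyclic AMP response element (CRE) or 8-base AP-1 type, as examples of how these letters lie. *Batf* and *Atf3* also hold TGACG, and their windows are not printed. The windows of *Fosl2* and *Jund* hold neither. The 4 stretches are taken from RefSeq for GRCm38.p6, run from 150 to 11 bases before the annotated start, and are written 5′ to 3′ on the gene's strand. Capitals mark TGACG, the core of a CRE, and TGACNTCA, its 8-base AP-1 form.
Fos, chr12:85473740-85473879, plus strand: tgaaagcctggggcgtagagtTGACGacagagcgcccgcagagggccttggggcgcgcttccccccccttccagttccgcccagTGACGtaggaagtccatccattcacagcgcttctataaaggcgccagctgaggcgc
Fosb, chr7:19310056-19310195, minus strand: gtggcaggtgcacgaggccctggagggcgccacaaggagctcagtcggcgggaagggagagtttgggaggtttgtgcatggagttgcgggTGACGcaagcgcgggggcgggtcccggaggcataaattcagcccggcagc
Jun, chr4:95052233-95052372, minus strand: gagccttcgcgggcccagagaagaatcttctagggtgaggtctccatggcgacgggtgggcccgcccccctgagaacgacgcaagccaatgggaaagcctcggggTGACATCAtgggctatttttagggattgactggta
Junb, chr8:84978759-84978898, minus strand: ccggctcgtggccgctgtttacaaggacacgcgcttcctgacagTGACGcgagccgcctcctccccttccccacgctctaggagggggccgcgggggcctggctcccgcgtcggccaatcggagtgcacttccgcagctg
In *Fos* the letters TGACG stood at 129 and at 66 bases before the start, in *Fosb* at 60 and in *Junb* at 106. In *Jun* TGACATCA began 45 bases before the start. All 10 members had 1 promoter window each, from 250 bases before the start to 50 after, and both strands were searched. The letters TGACG, which also occur inside a full CRE (TGACGTCA), were present in 5 of the 10 windows (*Fos*, *Fosb*, *Junb*, *Batf* and *Atf3*), against 21.0% of 27025 promoters of the same length. TGACNTCA, which includes the full CRE, was present in 1 of 10 (*Jun*) against 8.97%. The 7-base AP-1 site TGANTCA, found in 7.93% of promoters, the full CRE, found in 1.88%, and the CArG box bound by SRF, found in 1.57%, were in none of the 10 windows. Of the other motifs searched, the NF-kB site was in 3 of 10 (*Fos*, *Fosb* and *Fosl2*) against 4.35%, the SP1 letters GGGCGG in 7 of 10 against 35.9%, the NFAT core GGAAA in 4 of 10 against 61.3% and TATAAA in 2 of 10 (*Fos* and *Junb*) against 14.2%. These letters are a description of the windows and not evidence of binding, and sequence further upstream was not searched.

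Each sample had 16449370 to 22151025 reads on genes, with a median of 19176439. Among the 10 members, 8 had over 2000 reads in all. *Junb* had 96383 reads over the 12 samples, *Jund* 65688, *Batf* 26719, *Bach2* 13877, *Fos* 8044, *Fosb* 7958, *Fosl2* 5891 and *Jun* 2094. *Batf3* had 66 reads, spread over 5 samples, and *Atf3* had 23 reads in 2 samples. Genes with at least 30 reads in all were tested, so *Atf3* was the member without a test. Levels are given as CPM, the usual depth-scaled read count, with edgeR's TMM factors. A sample without a read of a gene may still hold up to 3 reads' worth of it, or 0.137 to 0.190 CPM depending on depth, a limit that reflects counting error alone because PCR copies cannot be told from separate molecules.

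The samples were checked against marker genes. *Cd3e*, part of the TCR complex, lay between 158 and 258 CPM and *Cd4* between 202 and 318 CPM. The 9 T cell markers summed to 4056 to 4670 CPM in every sample, with 4483 to 4645 under isotype and 4056 to 4137 under CB. The 8 B cell markers summed to 326 to 436 CPM in all groups, nearly all of it *Ighm* (323 to 412 CPM). The 9 myeloid markers summed to 9.90 to 17.4 CPM with isotype, 7.92 to 15.4 with anti-Lag3, 19.9 to 29.2 with anti-PD-L1 and 5.66 to 10.2 with CB, so that anti-PD-L1 lay above the other groups. The 8 dendritic cell markers summed to 11.4 to 33.7, 18.9 to 33.9, 25.0 to 36.2 and 7.81 to 21.8 CPM in the same order, and *Cd14* and *Xcr1* had no read in any sample. The 2 CD8 T cell markers summed to 40.9 to 45.3, 29.2 to 46.4, 24.6 to 30.5 and 25.0 to 33.2 CPM, with all isotype samples above those of anti-PD-L1 and CB. The 5 NK cell markers stayed between 3.71 and 11.1 CPM. The 6 erythroid markers summed to 241 to 451 CPM with isotype, 216 to 289 with anti-Lag3, 171 to 217 with anti-PD-L1 and 150 to 198 with CB. The part of these sums in the results was not tested.

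Neither *Bach2* nor any AP-1 gene tested was called between any pair of groups. In the comparison of CB with isotype, 649 of 15138 genes (4.29%) had an adjusted p under 0.05 in the quasi-likelihood test of edgeR after Benjamini-Hochberg adjustment, which is what called means below, and 0 of the 9 members tested were among them. At an unadjusted p under 0.05 the count of members was also 0, beside 2256 of all genes tested (14.9%), and DESeq2 called 0 members. The 8 members with over 2000 reads had log2 fold changes from -0.03 for *Jund* to 0.82 for *Jun*, with a median of 0.17 beside 0.00 for all genes tested, and 7 of the 8 were above 0. In bulk libraries fewer cells with a transcript and less transcript per cell cannot be told apart. The 3 mice per group limit the precision. The fit also had no term for the number in the sample name, so variation by number counted as spread within groups. The 95% interval of the log2 fold change reached 0.23 to each side of the estimate for *Jund* and 0.85 for *Jun*. Its upper ends were 0.20 for *Jund*, 0.42 for *Junb*, 0.54 for *Batf*, 0.61 for *Bach2* and 1.67 for *Jun*.

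**Figure D1:**
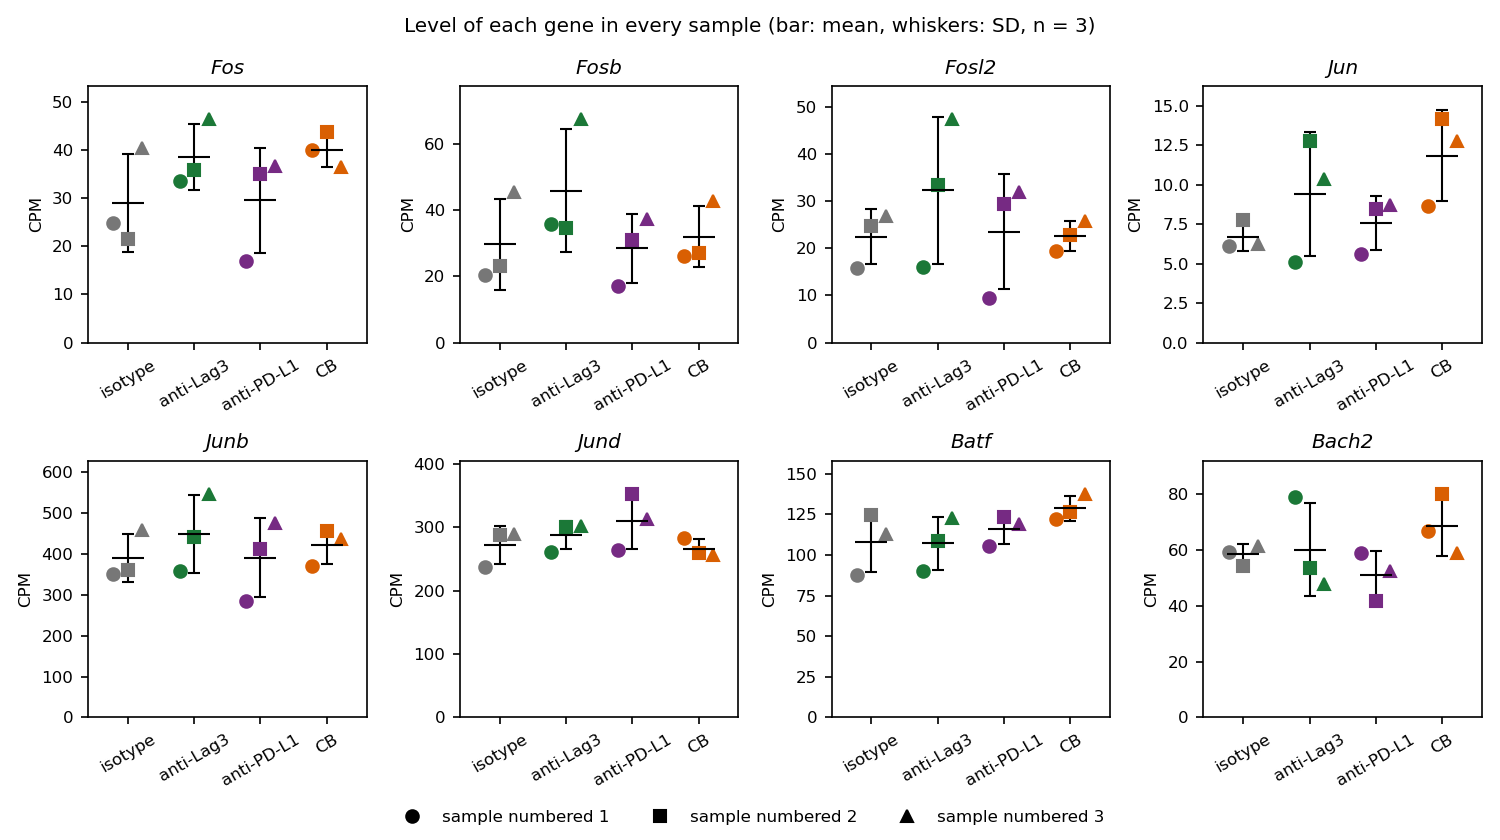
CPM (y axis) of 8 genes in each of the 12 samples, by group (x axis), with symbols for the number in the sample name; the horizontal bar is the mean and the whiskers are the SD of 3 mice. The circles, samples numbered 1, are the lowest of their group in all 4 groups for *Fosl2*, *Jun*, *Junb* and *Batf*, and *Jun* is the gene whose CB samples (8.64 to 14.1) lie above all isotype samples (6.14 to 7.79).

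*Fos*, the partner of JUN proteins that is induced within minutes of a stimulus, was at 24.9, 21.5 and 40.5 CPM in isotype samples 1, 2 and 3, and at 39.9, 43.7 and 36.4 CPM in the CB samples. It was at 33.5, 35.8 and 46.3 CPM with anti-Lag3 and at 17.0, 34.9 and 36.5 CPM with anti-PD-L1. The CB samples lay within a narrow range, but isotype sample 3 stood among them, and the groups overlapped. The log2 fold change of CB against isotype was 0.46 (standard error 0.26, 95% interval -0.07 to 1.00), with an adjusted p of 0.400 in edgeR's test. It was 0.29 without isotype sample 2 and 0.78 without isotype sample 3. *Fos* (ENSMUSG00000021250) lies on chromosome 12 from 85473890 to 85477273 on the plus strand.

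*Fosb*, a close relative of *Fos*, was at 20.4, 23.1 and 45.3 CPM in the isotype samples and at 26.2, 27.0 and 42.7 CPM in the CB samples. It reached 35.6, 34.6 and 67.2 CPM with anti-Lag3 and 17.1, 30.8 and 37.2 CPM with anti-PD-L1. Sample 3 was the highest in every group, and CB and isotype differed by a log2 fold change of 0.11 (interval -0.52 to 0.74). The estimate fell to -0.15 without CB sample 3, to -0.10 without isotype sample 1 and to -0.04 without isotype sample 2, and it was 0.55 without isotype sample 3, so its sign was not settled. *Fosb* had an unadjusted p of 0.0345 in anti-PD-L1 against anti-Lag3, with a log2 fold change of -0.69 (interval -1.32 to -0.05), and this did not pass adjustment (adjusted p = 0.802, the quasi-likelihood test of edgeR after Benjamini-Hochberg adjustment). That fold change was -0.30 without anti-Lag3 sample 3 and -0.43 without anti-PD-L1 sample 1. *Fosb* (ENSMUSG00000003545) lies on chromosome 7 from 19302696 to 19310051 on the minus strand.

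*Fosl2*, which encodes the FOS-related factor FRA2, had the widest range of the 8 genes as a ratio of highest to lowest sample. It was at 15.9, 24.6 and 26.8 CPM in the isotype samples, 16.0, 33.4 and 47.3 with anti-Lag3, 9.52, 29.3 and 31.8 with anti-PD-L1, and 19.4, 22.9 and 25.7 with CB. Anti-Lag3 sample 3 was 4.96 times as high as anti-PD-L1 sample 1. The group means of isotype and CB differed by 0.01 on the log2 scale (interval -0.71 to 0.74), with sign changes to -0.18 without isotype sample 1 and to -0.09 without CB sample 3. *Fosl2* (ENSMUSG00000029135) lies on chromosome 5 from 32135801 to 32157842 on the plus strand.

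*Jun*, the founding JUN gene, was at 6.14, 7.79 and 6.25 CPM in the isotype samples and at 8.64, 14.1 and 12.8 CPM in the CB samples. With anti-Lag3 it was at 5.11, 12.8 and 10.3 CPM, and with anti-PD-L1 at 5.63, 8.47 and 8.69 CPM. It was the 1 member whose CB and isotype samples did not overlap, a separation that 20.0% of all genes tested also had. Its log2 fold change was 0.82 (standard error 0.41, interval -0.03 to 1.67), and its adjusted p of 0.359 was the smallest of the members in this comparison by the quasi-likelihood test of edgeR after Benjamini-Hochberg adjustment. The estimate stayed between 0.67 and 1.00 with each sample left out in turn and the adjusted p did not fall under 0.296 in any of the alternatives tried. The antisense gene *Junos* shares its locus and had 133 reads. *Jun* (ENSMUSG00000052684) lies on chromosome 4 from 95049034 to 95052222 on the minus strand.

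*Junb*, which in T helper cells works with BATF as well as with FOS proteins, was at 351, 360 and 457 CPM in the isotype samples and at 370, 455 and 437 CPM in the CB samples. It was at 358, 442 and 546 CPM with anti-Lag3 and at 285, 411 and 476 CPM with anti-PD-L1. In each of the 4 groups the sample numbered 1 was the lowest, and the ranges of all groups overlapped. The log2 fold change of CB against isotype was 0.11 (interval -0.20 to 0.42). Leaving out isotype sample 1, 2 or 3 gave 0.04, 0.06 or 0.24, and leaving out CB sample 1 or 2 gave 0.195 or 0.05. *Junb* (ENSMUSG00000052837) lies on chromosome 8 from 84974484 to 84978718 on the minus strand of GRCm38, and its 3′ end shares 351 bases with *Prdx2*, which encodes a peroxide-removing enzyme and is read from the opposite strand. The strand setting of the counting is not stated, so reads from these 351 bases may belong to either gene. *Prdx2* was at 179 ± 6.23 CPM (SD, n = 3) with isotype, 206 ± 23.0 with anti-Lag3, 186 ± 10.1 with anti-PD-L1 and 220 ± 16.1 with CB, and its correlation with *Junb* over the 12 samples was 0.14. The part of shared reads in the *Junb* level was not tested.

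*Jund*, the JUN gene that is present in resting cells, had the narrowest range of the 8 genes as a ratio of highest to lowest sample (1.49). It was at 237, 288 and 288 CPM in the isotype samples, 261, 299 and 302 with anti-Lag3, 264, 352 and 313 with anti-PD-L1, and 284, 258 and 256 with CB. CB was the group in which sample 1 was the highest. CB and isotype differed by a log2 fold change of -0.03 (interval -0.26 to 0.20), and it became 0.02 without isotype sample 2 or isotype sample 3. *Jund* had the smallest adjusted p of the members in anti-PD-L1 against isotype, at 0.593 with a log2 fold change of 0.19 (interval -0.04 to 0.42) in the quasi-likelihood test of edgeR after Benjamini-Hochberg adjustment. This fold change was 0.09 without anti-PD-L1 sample 2, 0.10 without isotype sample 1 and 0.29 without anti-PD-L1 sample 1. *Jund* (ENSMUSG00000071076) lies on chromosome 8 from 70698949 to 70700616 on the plus strand.

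*Batf*, which pairs with JUN proteins and acts beside IRF4 in T helper 17 and follicular helper cells, was at 87.7, 124 and 113 CPM in the isotype samples and at 122, 127 and 137 CPM in the CB samples. With anti-Lag3 it was at 89.9, 109 and 123 CPM, and with anti-PD-L1 at 106, 123 and 119 CPM. Isotype sample 2 lay above CB sample 1, so the groups overlapped by that pair. The log2 fold change was 0.25 (standard error 0.14, interval -0.04 to 0.54), with an adjusted p of 0.401 in edgeR's test, and it was 0.12 without isotype sample 1. *Batf* (ENSMUSG00000034266) lies on chromosome 12 from 85686669 to 85709087 on the plus strand.

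*Batf3*, a relative of *Batf* best known from dendritic cells, and *Atf3*, a stress-induced factor, were close to the limit of detection. *Batf3* had 11 reads in isotype sample 1, 20 in anti-Lag3 sample 3, 20 and 14 in samples 2 and 3 of anti-PD-L1 and 1 in CB sample 1. *Atf3* had 11 reads in anti-Lag3 sample 3 and 12 in CB sample 1. The other samples held no read of these genes. A group difference of *Batf3* or *Atf3* was not detectable at this depth, and no fold change is given for either. *Batf3* (ENSMUSG00000026630) lies on chromosome 1 from 191097847 to 191108945 on the plus strand, and *Atf3* (ENSMUSG00000026628) lies on chromosome 1 from 191170296 to 191218039 on the minus strand.

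*Bach2* was at 59.4, 54.3 and 61.4 CPM in the isotype samples, 79.1, 53.6 and 47.6 with anti-Lag3, 59.0, 41.8 and 52.5 with anti-PD-L1, and 66.6, 80.0 and 58.9 with CB. Its log2 fold change was 0.23 between CB and isotype (interval -0.15 to 0.61) and 0.11 without CB sample 2. Between CB and anti-PD-L1 it was 0.42 (interval 0.05 to 0.80), with an unadjusted p of 0.0292 and an adjusted p of 0.477 in the quasi-likelihood test of edgeR after Benjamini-Hochberg adjustment. The gene (ENSMUSG00000040270) spans chromosome 4 from 32238804 to 32586108 of GRCm38, and the transcript *Bach2it1* inside it had 646 reads of its own.

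**Figure D2:**
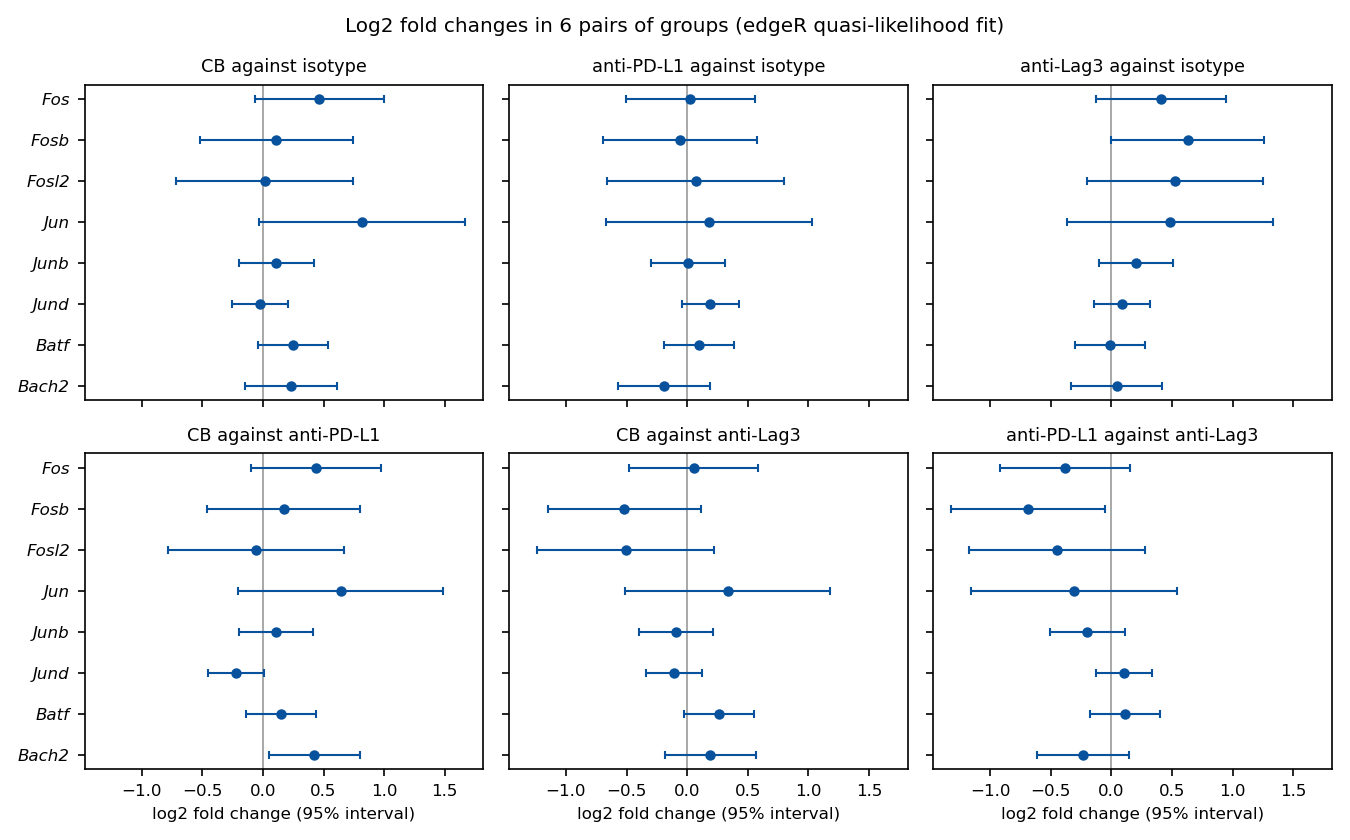
Log2 fold changes (x axis) of 8 genes (y axis) in 6 comparisons of groups, with 95% intervals from edgeR's quasi-likelihood fit. The intervals that leave out 0 are that of *Bach2* in CB against anti-PD-L1 (0.05 to 0.80) and that of *Fosb* in anti-PD-L1 against anti-Lag3 (-1.32 to -0.05), and neither gene was called after adjustment over all genes.

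The remaining comparisons gave no member either, all by the quasi-likelihood test of edgeR after Benjamini-Hochberg adjustment. In anti-PD-L1 against isotype 0.0330% of the genes tested were called, in CB against anti-PD-L1 0.370%, and in CB against anti-Lag3 0.694%. The interaction of the antibodies asks whether CB differed from the sum of both single effects on the log2 scale. In anti-Lag3 against isotype, in anti-PD-L1 against anti-Lag3 and in the interaction, 0% of genes were called. An unadjusted p under 0.05 was found for 788, 710 and 898 genes, which are 5.2%, 4.69% and 5.93% of those tested. A threshold of 0.05 passes about that share of genes when none differs. DESeq2 called 10, 10 and 5 genes. Members with an unadjusted p under 0.05 numbered 1 of 9 in CB against anti-PD-L1 (*Bach2*), beside 9.08% of all genes tested, 1 of 9 in anti-PD-L1 against anti-Lag3 (*Fosb*), beside 4.69%, and 0 in the other 5 tests, and DESeq2 called 0 members in all 7. These comparisons share their groups, so their values are not independent. The smallest adjusted p of a member was 0.805 (*Fosb*) in anti-Lag3 against isotype, 0.565 (*Batf*) in CB against anti-Lag3 and 0.872 (*Jund*) in the interaction. The median log2 fold change of the 8 members was 0.05 for anti-PD-L1 and 0.31 for anti-Lag3, each against isotype, beside 0.00 for all genes in both.

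Of the 7 AP-1 genes with over 2000 reads, *Junb*, *Fosl2*, *Fosb* and *Batf* varied more by sample number than by group, and *Jun* did so by a margin that turned with the deposited rlog values (44.2% by group and 42.5% by number). The variance of log2 CPM was divided into a part by group, a part by the number in the sample name and a remainder, as a description without a test. The number held 69.8% of the variance of *Junb*, 69.2% of that of *Fosl2*, 62.4% for *Fosb*, 47.9% for *Batf* and 45.2% for *Jun*. It held 30.1% for *Jund*, 27.4% for *Fos* and 19.8% for *Bach2*. The median of the 8 members was 46.5%, beside 13.6% for the 10448 genes that averaged 30 reads or more. The share by group was 32.5% in the median of the members and 31.1% in that of all genes, with the lowest values in *Fosl2* (11.3%) and *Junb* (12.6%) and the highest in *Jun* (40.9%).

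**Figure D3:**
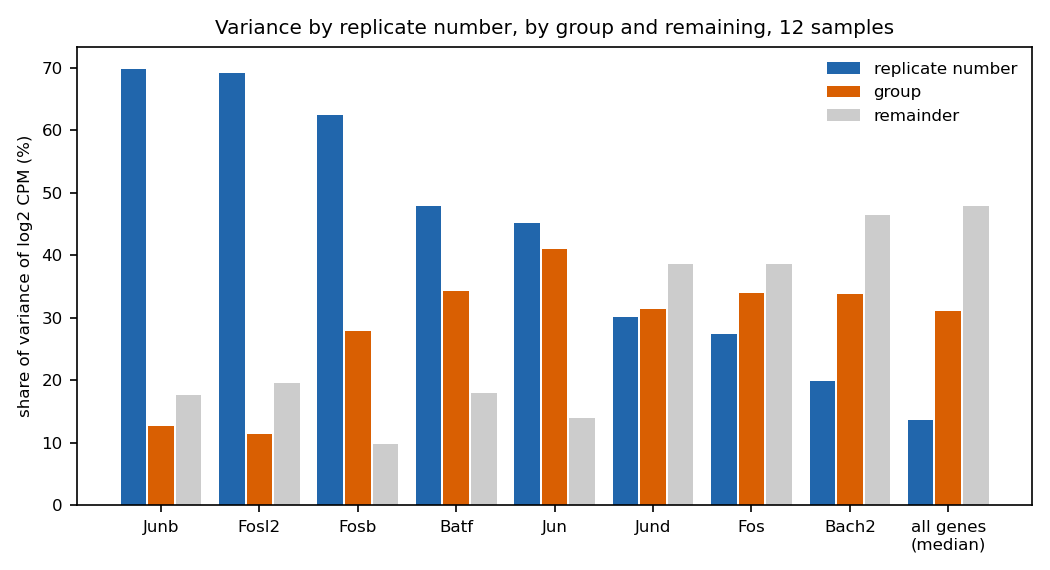
Share of the variance of log2 CPM over 12 samples (y axis, percent) that lies between replicate numbers, between groups and in the remainder, for 8 genes and as the median of 10448 genes (x axis). The bar for the number is the highest of the 3 in *Junb*, *Fosl2*, *Fosb*, *Batf* and *Jun* and the lowest of the 3 in *Bach2*, *Fos* and *Jund*.

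Levels of the 7 AP-1 members with over 2000 reads were lower on average in the samples numbered 1. The mean log2 CPM of the 4 samples numbered 1 minus that of the other 8 was -0.997 for *Fosl2*, -0.64 for *Jun*, -0.61 for *Fosb*, -0.40 for *Fos*, -0.39 for *Junb*, -0.28 for *Batf* and -0.17 for *Jund*. *Bach2* went the other way, by 0.24, and the median of all genes tested was -0.01. Sample 1 was the lowest of its group in all 4 groups for *Fosl2*, *Jun*, *Junb* and *Batf*, which are 4 of 8 members, beside 1.67% of all genes tested. It was the lowest in 3 groups for *Fosb* and *Jund*, in 2 for *Fos* and in 0 for *Bach2*. The 5 further AP-1 genes, *Fosl1*, *Batf2*, *Jdp2*, *Atf2* and *Atf7*, did not follow, with 1 of 5 lower in the samples numbered 1 and a median difference of 0.35. This grouping by number was described after the values had been seen.

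Other genes of the early response to a stimulus, including those that tissue digestion also raises, were mostly lower in the samples numbered 1 as well. Of 17 such genes tested, 16 had a lower mean log2 CPM there, with a median difference of -0.43. Sample 1 was the lowest of its group in all 4 groups for *Ier2*, *Nr4a1*, *Nfkbia*, *Socs3* and *Gadd45b*, 5 of the 17. The share over all genes tested, for this list and those below, was 1.67%. The difference was -1.04 for *Gadd45b*, a stress-response gene upstream of p38, -0.56 for *Nr4a1*, the gene of NUR77, and -0.44 for *Nfkbia*, which encodes the inhibitor of NF-kB. Among 12 BATF-dependent genes 11 were lower, with a median of -0.47, and *Ctla4*, *Il10* and *Bcl6* had sample 1 lowest in all 4 groups. Of 12 genes that BACH2 represses 11 were lower, with a median of -0.71, the largest shift of the 13 lists. *Gzmb* and *Il10* had sample 1 lowest in all 4 groups. The shifts in this list were uneven, from -3.16 for *Ccr4* to 0.007 for *Gata3*. *Prdm1*, *Rora* and *Il10* are also among the BATF-dependent genes, so the 2 lists are not independent. The 9 DNA partners of AP-1 and BATF went the other way, with 1 lower and a median of 0.15. Of 9 heat shock genes 7 were lower, but the median difference was -0.06. Among 15 kinases and adaptors upstream of AP-1 the median was 0.02, and the count lower was 6. The part of tissue digestion in these differences was not tested.

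Library depth and cell markers are given beside this pattern. Reads on genes were between 17489767 and 20190254 in the samples numbered 1, between 16449370 and 20468115 in those numbered 2 and between 18711007 and 22151025 in those numbered 3. The mitochondrial share was 1.85% to 2.64%, 2.15% to 2.66% and 2.42% to 2.69% in the same order. The share of the gene ENSMUSG00000119584 was 14.3% to 21.9%, 16.0% to 20.9% and 16.4% to 19.2%. Its highest median, 19.0%, was in the samples numbered 1. The 8 B cell markers summed to 326 to 392, 342 to 428 and 403 to 436 CPM, and the 8 dendritic cell markers to 7.81 to 25.0, 14.7 to 27.2 and 21.8 to 36.2 CPM. The T cell markers summed to 4056 to 4483, 4137 to 4670 and 4110 to 4534 CPM. The B cell, dendritic cell and T cell sums thus had their lowest medians in the samples numbered 1. The myeloid and erythroid sums had their highest medians there, at 16.4 CPM beside 11.6 and 11.2, and at 249.8 CPM beside 216.5 and 219.5. Spike-ins took a median share of 0.895% of the counts in samples numbered 1, and higher median shares in those numbered 2 (1.01%) and 3. The part of these values in the AP-1 levels was not tested. Without the 4 samples numbered 1, an alternative chosen after seeing the data, 0 members were called in all 7 comparisons.

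Across the 12 samples the levels of the AP-1 genes varied together. Pearson's r of log2 CPM was above 0 in all 21 pairs of the 7 AP-1 genes with over 2000 reads, from 0.17 (*Jun* and *Jund*) to 0.92 (*Fosl2* and *Junb*), with a median of 0.55. After the mean of each group was taken off, all 21 pairs stayed above 0, with a median of 0.68 and a highest value of 0.92. For pairs of those 10448 genes the median after the same step was -0.001, with quartiles at -0.27 and 0.27. After the mean of each number was taken off as well, the median of the 21 pairs was 0.35 and 15 of them were above 0. Both genes of a pair were measured in the same 12 libraries with the same scaling, and r is given as a description.

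*Bach2* tended to run against the AP-1 genes. Its r with the 7 lay between -0.72 (*Jund*) and 0.07 (*Fos*), with a median of -0.26. With the group means taken off, all 7 values were below 0, from -0.72 with *Fosl2* to -0.29 with *Fos*, and the median was -0.63. With the means of the numbers taken off too, the median was -0.46 and 1 of 7 was above 0. The 7 values are not independent, because the 7 AP-1 genes varied together. A background of gene pairs was computed only with the group means taken off, and its lower quartile was -0.27. The opposition did not hold in every sample: CB sample 2 had the highest level of the 12 samples for both *Bach2* (80.0 CPM) and *Jun* (14.1 CPM).

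**Figure D4:**
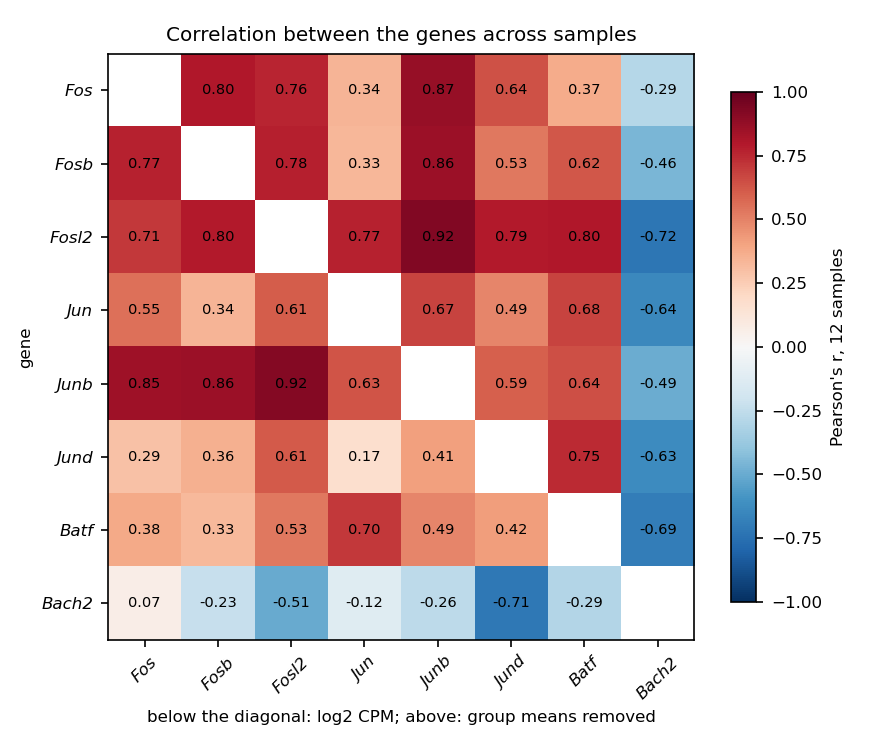
Pearson's r over 12 samples between 8 genes (both axes), from log2 CPM below the diagonal and after removal of the group means above it, with colour from -1 (blue) to 1 (red). The 7 AP-1 genes form a block above 0, from 0.17 to 0.92 below the diagonal, and the row and column of *Bach2* hold the values below 0.

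The genes closest in pattern were sought among 8631 genes that averaged 100 reads or more, by Pearson's r of log2 CPM over the 12 samples. Nearest to *Junb* were *Pim1*, a kinase gene (0.955), *Fosl2* (0.92) and *Nfkbia* (0.91). Nearest to *Fos* were *Xbp1*, a bZIP factor of the unfolded protein response (0.92), *Snx19* (0.89) and *Crem*, a bZIP gene responsive to cyclic AMP (0.89). *Batf* was nearest to *Txndc15* (0.89), *Nanos1* (0.86) and *Ubxn4* (0.86), and *Bach2* to *Stard7* (0.85), *Dbt* (0.81) and *Acot7* (0.81). Taking the highest of 8631 values over 12 samples yields a high r by selection, and no background for this was computed.

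Some genes for DNA partners of these factors were higher with CB than with isotype, and a difference between partners and members was not tested. All calls from here on are of that comparison, by the quasi-likelihood test of edgeR after Benjamini-Hochberg adjustment over all 15138 genes, and the lists were put together with earlier results of these data known. Among all genes tested 353 were higher and 296 lower, 4.29% in all. Of 9 genes for partners of AP-1 and BATF, 3 were higher and 1 lower, with a median log2 fold change of -0.07 beside 0.00 for all genes. *Irf8*, a partner of BATF, rose from a mean of 64.9 to 141 CPM (adjusted p = 6.84e-05), which is 1.11 on the log2 scale with a standard error of 0.16. *Irf4*, the other IRF partner, rose by 0.78 (adjusted p = 0.0122), a call lost without isotype sample 3 (adjusted p = 0.0842) or CB sample 1 (0.148). *Runx3* rose by 0.53 (adjusted p = 0.00392), with an adjusted p of 0.0508 without CB sample 3. *Ets1*, an ETS factor that joins AP-1 on composite sites, fell by 0.58 on the log2 scale (adjusted p = 0.00203).

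Genes known to need BATF or AP-1 sites held further calls. Of 12 BATF-dependent genes 4 were higher and 0 lower, beside 4.29% of all genes called in either direction, with a median log2 fold change of 0.62. *Ccr6*, a chemokine receptor of T helper 17 cells, rose by 3.62 (standard error 0.45, adjusted p = 1.66e-05), *Il21* by 2.16 (adjusted p = 0.00203), *Icos* by 0.68 (adjusted p = 0.000115) and *Maf* by 0.66 (adjusted p = 0.00363). Of 9 tested targets of AP-1 or of NFAT with AP-1, 2 were higher and 0 lower, with a median of -0.21. *Tnfrsf4*, which encodes OX40, rose by 0.95 (adjusted p = 0.000265). *Il2ra* rose by 0.99 (adjusted p = 0.0288), a call lost without isotype sample 1 (0.173), CB sample 2 (0.0668) or CB sample 3 (0.290).

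Genes tied to BACH2 moved in both directions. Of 10 genes that are kept on in resting T cells with high BACH2, 5 were lower and 0 higher, beside 4.29% of all genes called in either direction. Their median log2 fold change was -0.32, and 1 of the 10 was above 0. *S1pr1*, the receptor for exit from lymphoid organs, fell by 1.41 on the log2 scale (adjusted p = 1.03e-05), and *Foxo1* fell by 0.56 (adjusted p = 0.00203). *Lef1* fell by 0.64 (adjusted p = 0.00502, and 0.0513 without CB sample 3). *Tcf7* fell by 0.29 (adjusted p = 0.0405), a call lost without any 1 of the 3 isotype samples, any 1 of the 3 CB samples or anti-Lag3 sample 3, with an adjusted p of 0.133 at most. Of 12 tested genes that BACH2 represses, 1 was higher and 1 lower, with a median of 0.50 and 11 of the 12 above 0. *Gata3*, the T helper 2 factor, fell by 0.95 (adjusted p = 0.000842). *Nfil3*, itself a bZIP gene, rose by 1.94 (adjusted p = 0.0104), a call lost without isotype sample 2 (0.0526), CB sample 1 (0.0524) or CB sample 3 (0.0661). *Bach2* itself stood at a log2 fold change of 0.23 in the same fit, without a call.

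**Figure D5:**
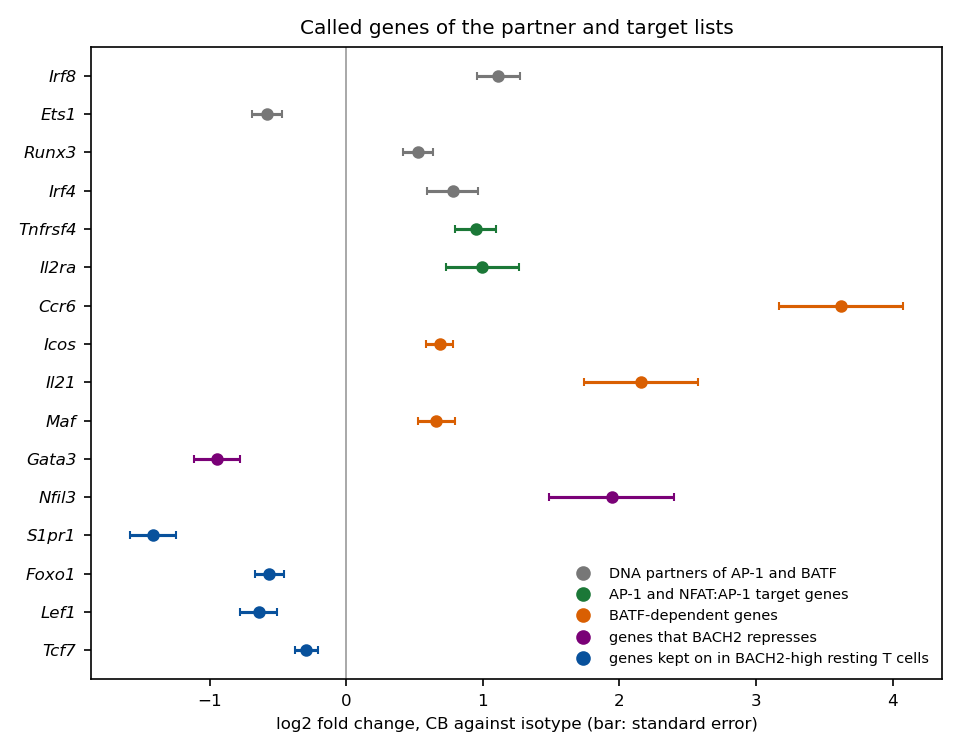
Log2 fold change of CB against isotype (x axis, bars are standard errors) for genes called in 5 lists of partners and targets (y axis, colour by list). *Ccr6* at 3.62 and *Il21* at 2.16 stand highest and *S1pr1* at -1.41 lowest. The 8 AP-1 and *Bach2* transcripts measured in the same libraries lay between -0.03 and 0.82. That range also held called genes such as *Irf4* (0.78) and *Icos* (0.68), and a difference between members and lists was not tested.

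Genes upstream of AP-1 and other genes of the bZIP class held calls in both directions, beside 4.29% of all genes. Of 15 kinases and adaptors 1 was lower, *Rasgrp1*, the activator of RAS below the TCR, which fell by 0.76 (adjusted p = 0.0169), and the call was lost without isotype sample 1 (0.124), CB sample 1 (0.0839) or CB sample 2 (0.103). Of 9 MAP kinase phosphatases 1 was lower, *Dusp10*, which acts on JNK and p38 and fell by 0.84 (adjusted p = 0.0411); this call was lost without any 1 of the 3 isotype samples, any 1 of the 3 CB samples or anti-Lag3 sample 2, with an adjusted p of 0.167 at most. None of the 6 genes for SRF and its ternary complex factors and none of the 5 further AP-1 genes (*Fosl1*, *Batf2*, *Jdp2*, *Atf2* and *Atf7*) passed, with smallest adjusted p-values of 0.0552 and 0.750. Of 9 tested CREB and ATF genes *Atf4* was higher by 0.56 (adjusted p = 0.00569), and the call was lost without isotype sample 1 (0.0539) or CB sample 3 (0.0639). Of 13 small MAF, CNC and other bZIP genes 2 were higher, the *Maf* and *Nfil3* given above.

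Of the 17 early-response genes 1 was called, beside 4.29% of all genes. This was *Ier2*, which fell by 0.65 (adjusted p = 0.0255), and this call was lost without isotype sample 2 (0.0577), isotype sample 3 (0.144), CB sample 1 (0.122) or CB sample 2 (0.112). Of 9 heat shock genes 4 were higher, with a median log2 fold change of 0.41. *Hsp90aa1* rose by 0.72 (adjusted p = 1.6e-06), *Hsph1* by 0.70 (adjusted p = 0.00115), *Hspe1* by 0.68 (adjusted p = 2.3e-05) and *Hsp90ab1* by 0.41 (adjusted p = 4.52e-05). Of the markers, 2 of 9 T cell genes (*Cd4* and *Cd3e*) and 2 of 6 erythroid genes (*Hbb-bs* and *Hbb-bt*) were lower with CB, and their part in the calls of this section was not tested. Leaving aside these 4 marker genes, whose calls were not followed under the alternatives, 25 genes were called in the lists, *Ier2* and the heat shock genes included. Of the 25, 14 were called under each of the 21 alternatives, and 4 of these 14 are the heat shock genes. Testing with DESeq2 against 0.2 on the log2 scale lost 10 of the 25 calls, *Irf4*, *Il2ra*, *Maf*, *Runx3*, *Atf4*, *Lef1*, *Tcf7*, *Rasgrp1*, *Dusp10* and *Ier2*, and leaving out the 4 samples numbered 1 lost 4, *Irf4*, *Tcf7*, *Rasgrp1* and *Dusp10*.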

How the data were processed

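Responder CD4+ T cells of 12 mice were profiled by QuantSeq 3′ mRNA-seq from 5 ng of RNA with 18 PCR cycles. For the authors, the kit maker Lexogen trimmed reads with Cutadapt 1.18, aligned them with STAR 2.6.1a to GRCm38 and counted uniquely mapped reads with featureCounts 1.6.4, and the authors deposited these raw counts; the annotation release and strand setting are not given in the sources used here. They also deposited rlog values, log2 values shrunken by DESeq2, which served as an alternative in the division of variance. Symbols and positions were taken from GENCODE for GRCm38 (52073 of 56691 genes), and 114 spike-ins were left out.

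Counts were fitted with edgeR 4.0.16 in R 4.3.3 (TMM, 4 group means on 12 samples without covariates, quasi-likelihood tests, Benjamini-Hochberg adjustment over 15138 genes with at least 30 reads in all, threshold 0.05). Scripts were tested on simulated data. Log2 CPM used a prior count of 2. The members and gene lists were chosen with earlier results of these data known. All members were given with every sample's value, and of each list the genes called between CB and isotype, at most 6 by adjusted p; some of these are not reported here. Genes of similar pattern were the 3 with the highest r for *Fos*, *Junb*, *Batf* and *Bach2*. Alternatives were DESeq2 1.42.0 (tests against 0 and 0.2), edgeR against 0.2, DESeq2 size factors, filterByExpr, no filter, fits of only 2 groups, the number in the sample name as a block, and each sample left out.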

Additional observations from a re-analysis of the deposited data

How the results depend on the processing

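0 members were called in all 7 comparisons under each of the 21 alternatives run (20 for the interaction, for which a fit of only the groups compared has no smaller form). With each sample left out in turn, the log2 fold change of CB against isotype changed sign for *Fosb* (-0.15 to 0.55), *Fosl2* (-0.18 to 0.16) and *Jund* (-0.116 to 0.019), and that of *Fosl2* was -0.084 without the 4 samples numbered 1, an alternative added after seeing the data; the cause was not tested. The other 5 members kept their direction. Counts of genes called are given in the order CB, anti-PD-L1 and anti-Lag3 against isotype, CB against anti-PD-L1, CB against anti-Lag3, anti-PD-L1 against anti-Lag3, and interaction, and were 649, 5, 0, 56, 105, 0 and 0 as reported. They were 871, 56, 10, 157, 284, 10 and 5 with DESeq2 against 0, 233, 11, 2, 16, 41, 8 and 2 with DESeq2 against 0.2, and 364, 2, 0, 3, 39, 0 and 0 with edgeR against 0.2. They were 818, 40, 14, 150, 252, 2 and 10 without the filter, and 436, 11, 5, 43, 98, 3 and 0 without the samples numbered 1. With only the groups compared, 21 genes were called in CB against anti-PD-L1 and 1 in anti-PD-L1 against anti-Lag3. With each sample left out the counts ran from 397 to 712, 0 to 11, 0 to 1, 4 to 59, 44 to 135, 0 to 1 and 0 to 2. With the replicate number as a block they were 843, 23, 9, 137, 208, 0 and 4, with 0 members called. The numbers were not taken to pair the samples. Over 10448 genes, the correlation of deviations from the group means between samples of the same number ran from -0.06 to 0.12. Its median was 0.06, it passed 0.1 in 2 of 18 pairs, and 8 of 12 samples were on average closest to their own number. The correlation ran from 0.01 to 0.12 for number 1, from -0.06 to 0.09 for number 2 and from 0.04 to 0.09 for number 3. Between samples of different numbers it ran from -0.13 to 0.07, with a median of -0.015, and passed 0.1 in 0 of 36 pairs. Because the numbers were not taken as pairs, the planned test of the number itself and its alternatives were not run. With a prior count of 0.5 or rlog values the median share of variance by number was 46.5% or 45.2% for the members, and with rlog values the share of *Jun* by group passed that by number. The 3 mice per group limit the precision, as do the reads of *Batf3* and *Atf3*.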
